A study of Homo sapiens with 3 samples.

Results

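The cyclin-dependent kinase (CDK) inhibitor genes were followed in HCT116 cells, an established human colorectal cancer line, after knockdown of SMARCA4. The group holds 8 genes, CDKN1A, CDKN1B, CDKN1C, CDKN2A, CDKN2B, CDKN2C, CDKN2D and CDKN3, and its members are all non-control probes that carry one of these names, each probe taken separately. They were 11 of the 58201 non-control probes of the array. CDKN1B, CDKN2A and CDKN3 had 2 probes each and the other genes 1.

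The cells received either of 2 small interfering RNAs (siRNAs) against SMARCA4 (SMARCA4-KD1 and SMARCA4-KD2) or a scrambled negative control (NC), all by lipid transfection of the same line, and total RNA of each was hybridised to 1 array with 1 colour, Cy3. The comparison asks which transcripts differ when SMARCA4, the ATPase of the SWI/SNF chromatin remodelling complex, is reduced. Titles and the siRNA protocol of the samples name SMARCA4, whereas the treatment field names PRMT1 and was used only for the knockdown number. The array values went with the titles: the SMARCA4 probe read 3960 intensity units on the SMARCA4-KD1 array, 4129 on the SMARCA4-KD2 array and 14026 on the NC array, which after scaling was 26.6% and 28.8% of NC, whereas PRMT1 stood at 120% and 129% of NC. The protocol does not say which siRNA was used for which knockdown number.

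CDK inhibitors hold back the kinases that drive the cell cycle. The Cip/Kip proteins p21, p27 and p57 (CDKN1A, CDKN1B and CDKN1C) bind complexes of several cyclins and CDKs. The INK4 proteins p16, p15, p18 and p19 (CDKN2A, CDKN2B, CDKN2C and CDKN2D) bind CDK4 and CDK6 and keep them from D-type cyclins, so that the retinoblastoma protein stays active. CDKN3 stands apart from both families: it is a phosphatase that removes an activating phosphate from CDK2, and its transcript is known to be abundant in dividing cells.

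Of the 8 genes, CDKN1A was higher in both knockdowns than in NC, and CDKN2C, CDKN2D and CDKN3 were lower in both. CDKN1B had lower values in both knockdowns that did not reach 1.5-fold, and CDKN1C, CDKN2A and CDKN2B lay closer to NC by the mean of both knockdowns. All 11 probes were detected on all 3 arrays (the extraction software's mark for a signal well above background), and none was saturated or set aside as an outlier spot. At least 1.5-fold higher in both knockdowns were 1 of 11 member probes and 6.56% of the 29333 probes detected on at least 1 array. At least 1.5-fold lower in both were 4 of 11 member probes, against 7.98% of all probes. The same probes passed in each knockdown taken alone: 1 was higher and 4 were lower in SMARCA4-KD1, where 11.5% of all probes were higher and 12.1% lower, and 1 was higher and 4 were lower in SMARCA4-KD2, where 10.2% were higher and 9.8% lower. For SMARCA4-KD1 the 11 probes had a median log2 fold change of -0.36 and for SMARCA4-KD2 of -0.39, beside 0.00 and 0.02 over all probes tested.

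Each condition had 1 array, so these folds have no replicate check. The errors given here for a log2 fold change are those of the extraction software for the spots and leave out the spread between cultures and slides. They were 0.20 for 10 of the member probes and 0.32 and 0.34 for CDKN2B. For these 10 the software's error was a nearly fixed share of the signal, from 303 to 11367 intensity units. Past or within the extraction error thus means, for them, a log2 difference above or below about 0.20, not a measured spread. Both knockdowns share the NC array, and both knockdown arrays lay on 1 slide while NC lay on another, so slide and knockdown cannot be told apart. In a limma fit of both knockdowns against NC over all probes, with 1 residual degree of freedom and the lone NC array assumed to vary like the knockdown arrays, no probe passed an adjusted p of 0.05 (0.0% of 29333), and 8 of 11 member probes and 30.9% of all probes passed an unadjusted p of 0.05. When only the 25281 probes detected on all 3 arrays were fitted, 6 of 11 member probes and 26.4% of all probes passed the adjusted p, so the adjusted p of most members is given for both fits.

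**Figure D1:**
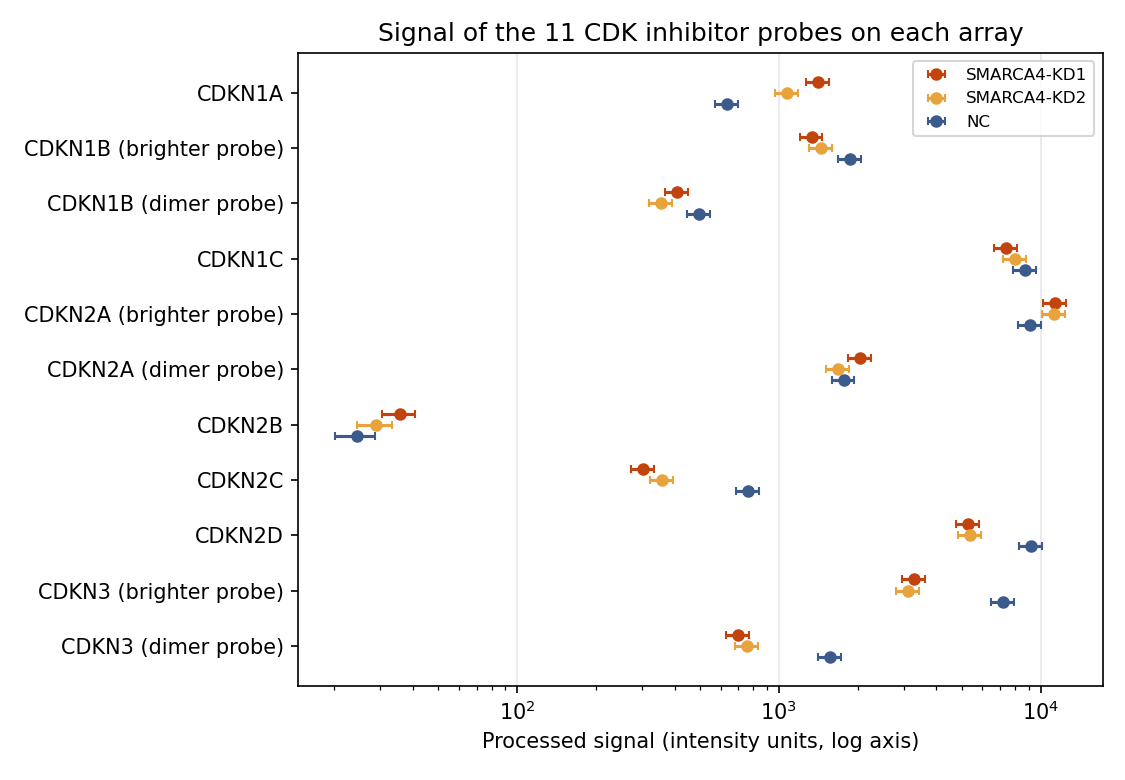
Processed signal (intensity units, log axis) of each of the 11 CDK inhibitor probes on the SMARCA4-KD1, SMARCA4-KD2 and NC arrays, 1 point per array, with the error given by the extraction software as bars. Levels of different probes cannot be set against each other. Both knockdown points lie to the right of NC for CDKN1A and to the left for CDKN2C, CDKN2D and both CDKN3 probes.

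Among the Cip/Kip genes, CDKN1A encodes p21, which inhibits CDK2 complexes and binds PCNA. Its probe lies in the coding sequence at chr6:36652178-36652237 (hg19). The coordinates are those of the array files, and the place of a probe within its transcript, here and for the other members, follows the known layout of the gene. It read 1410 intensity units for SMARCA4-KD1, 1079 for SMARCA4-KD2 and 636 for NC, so that both knockdowns were above NC and SMARCA4-KD1 was the highest. After scaling each array to its 75th percentile, the log2 fold change against NC was 1.06 ± 0.20 (extraction error) in SMARCA4-KD1, a 2.09-fold higher level, and 0.73 ± 0.20 in SMARCA4-KD2, a 1.66-fold higher level. A larger change in either direction was seen for 5.87% of all probes with the first knockdown and for 12.5% with the other. SMARCA4-KD1 exceeded SMARCA4-KD2 by 0.33 ± 0.20 on the log2 scale, which was past the extraction error and short of 1.5-fold. The adjusted p of limma was 0.0899 over probes detected on at least 1 array and 0.00448 over those well above background on all 3.

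CDKN1B encodes p27, a CDK2 inhibitor that is controlled largely through its turnover by the ubiquitin ligase subunit SKP2. Its brighter probe lies in the 3′ untranslated region (chr12:12874940-12874999) and read 1333, 1452 and 1865 intensity units in SMARCA4-KD1, SMARCA4-KD2 and NC. Its dimmer probe lies in the coding sequence (chr12:12871119-12871178) and read 409, 354 and 494. Both probes thus had their highest level in NC, and neither reached 1.5-fold. The log2 fold change of the brighter probe was -0.57 in SMARCA4-KD1, just inside the threshold of 0.58, and -0.39 in SMARCA4-KD2, and that of the dimmer probe was -0.36 and -0.51. The order of the knockdowns was opposite between the probes, by less than the extraction error in each. The adjusted p of limma was 0.109 for the brighter and 0.140 for the dimmer probe, and 0.0240 and 0.0549 over probes detected on all 3 arrays.

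CDKN1C encodes p57, the imprinted member of the family. Its probe in the 3′ untranslated region (chr11:2904903-2904962) read 7368 intensity units for SMARCA4-KD1, 7986 for SMARCA4-KD2 and 8717 for NC, a log2 fold change of -0.33 ± 0.20 and -0.16 ± 0.20. The SMARCA4-KD2 value lay within the extraction error of NC, and the adjusted p of limma was 0.244, or 0.150 over probes detected on all 3 arrays.

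The coding probes of the inhibitors are shown because each is the stretch of transcript that the array read, written as the 60 bases of the array's own file in lower case throughout. The CDKN1A probe holds no stop codon in any of the 3 frames of the printed strand.
CDKN1A, chr6:36652178-36652237: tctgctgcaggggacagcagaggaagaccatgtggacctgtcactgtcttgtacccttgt
CDKN1B dimmer probe, chr12:12871119-12871178: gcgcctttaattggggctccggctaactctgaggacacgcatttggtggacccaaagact
CDKN2A dimmer probe, chr9:21970901-21970960: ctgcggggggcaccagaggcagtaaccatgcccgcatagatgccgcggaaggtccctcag
CDKN3 brighter probe, chr14:54878384-54882635: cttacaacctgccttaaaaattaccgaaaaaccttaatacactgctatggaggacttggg
CDKN3 dimmer probe, chr14:54866634-54866693: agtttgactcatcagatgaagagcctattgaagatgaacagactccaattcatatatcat

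The INK4 genes differed among themselves. CDKN2A and CDKN2B lie side by side on chromosome 9, and none of their 3 probes reached 1.5-fold in either knockdown, whereas CDKN2C on chromosome 1 and CDKN2D on chromosome 19 were lower than NC in both. This depended on the scaling. With the spike-in scaling described below, CDKN2B had 0.76 in SMARCA4-KD1 and the brighter CDKN2A probe 0.59 in SMARCA4-KD2, both past 1.5-fold. CDKN2D was then no longer 1.5-fold lower. CDKN2A encodes p16 and, from another first exon and reading frame, p14ARF. Its brighter probe, in the 3′ untranslated region at chr9:21968039-21968098, read 11367, 11245 and 9109 intensity units in SMARCA4-KD1, SMARCA4-KD2 and NC, and its log2 fold change was 0.23 ± 0.20 and 0.27 ± 0.20. Its dimmer probe, in a coding exon that both transcripts hold, read 2046, 1681 and 1768, and its log2 fold change was 0.12 ± 0.20 and -0.10 ± 0.20. The brighter probe was thus slightly above NC in both knockdowns, and the dimmer was the single member probe whose changes had opposite signs, each within its extraction error. Neither probe tells p16 from p14ARF. Their adjusted p in limma was 0.141 and 0.967.

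CDKN2B encodes p15, which TGF-beta induces in epithelial cells. Its probe in the 5′ untranslated region (chr9:22008979-22009038) was the dimmest of the members, at 35.6 intensity units for SMARCA4-KD1, 29.0 for SMARCA4-KD2 and 24.5 for NC, where the lowest signals of detected probes were 16.9, 16.4 and 17.7. The log2 fold change was 0.45 ± 0.32 and 0.21 ± 0.34. With the normexp background correction it was 0.05 and -0.05, so the direction of CDKN2B was not settled. The antisense RNA of the locus, CDKN2B-AS1, had 2 of 4 probes detected on all arrays, with log2 fold changes of -0.37 and -0.45 for the brighter of these and -0.50 and -0.52 for the other. These 2 probes read 25.3 to 35.5 intensity units over the arrays, as near to the lowest detected signals as CDKN2B. The counterpart on the opposite strand thus had lower values in both knockdowns than in NC, below 1.5-fold. Its values with normexp and with spike-in scaling are not given here, so its direction is not taken as settled either.

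CDKN2C encodes p18, an inhibitor of CDK4 and CDK6. Its probe in the 3′ untranslated region (chr1:51439963-51440022) read 303 intensity units for SMARCA4-KD1, 358 for SMARCA4-KD2 and 761 for NC. Both knockdowns were below NC, at 37.4% and 46.0% of it after scaling, a log2 fold change of -1.42 ± 0.20 and -1.12 ± 0.20. This was the largest change against NC among the members in SMARCA4-KD1, and 2.45% of all probes changed more there. The knockdowns differed by -0.30 ± 0.21, past the extraction error and short of 1.5-fold. The adjusted p of limma was 0.0736, or 0.00128 over probes detected on all 3 arrays.

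CDKN2D encodes p19, the other INK4 protein of this pair. Its probe in the 3′ untranslated region (chr19:10677226-10677285) read 5301 intensity units for SMARCA4-KD1, 5388 for SMARCA4-KD2 and 9215 for NC. Both knockdown values were within the extraction error of each other and stood at 54.2% and 57.2% of NC, a log2 fold change of -0.88 ± 0.20 and -0.81 ± 0.20. The adjusted p of limma was 0.0718, or 0.00123 over probes detected on all 3 arrays.

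CDKN3, the phosphatase, was read by 2 probes at different places of the transcript. The brighter probe has listed ends 4252 bases apart on chromosome 14 and so spans an intron, and it read 3279 intensity units for SMARCA4-KD1, 3124 for SMARCA4-KD2 and 7205 for NC. The dimmer probe read 697, 758 and 1568. On both probes the knockdowns lay together and below NC: the brighter stood at 42.9% and 42.4% of NC, the dimmer at 41.9% and 47.3%. The log2 fold changes were -1.22 and -1.24 for the brighter probe and -1.26 and -1.08 for the dimmer, each ± 0.20, so that the probes differed by no more than their error. The brighter probe had the smallest adjusted p among the members when fitted over probes detected on all 3 arrays, at 0.000377, and the dimmer had 0.000851. Both had 0.0718 over probes detected on at least 1 array.

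**Figure D2:**
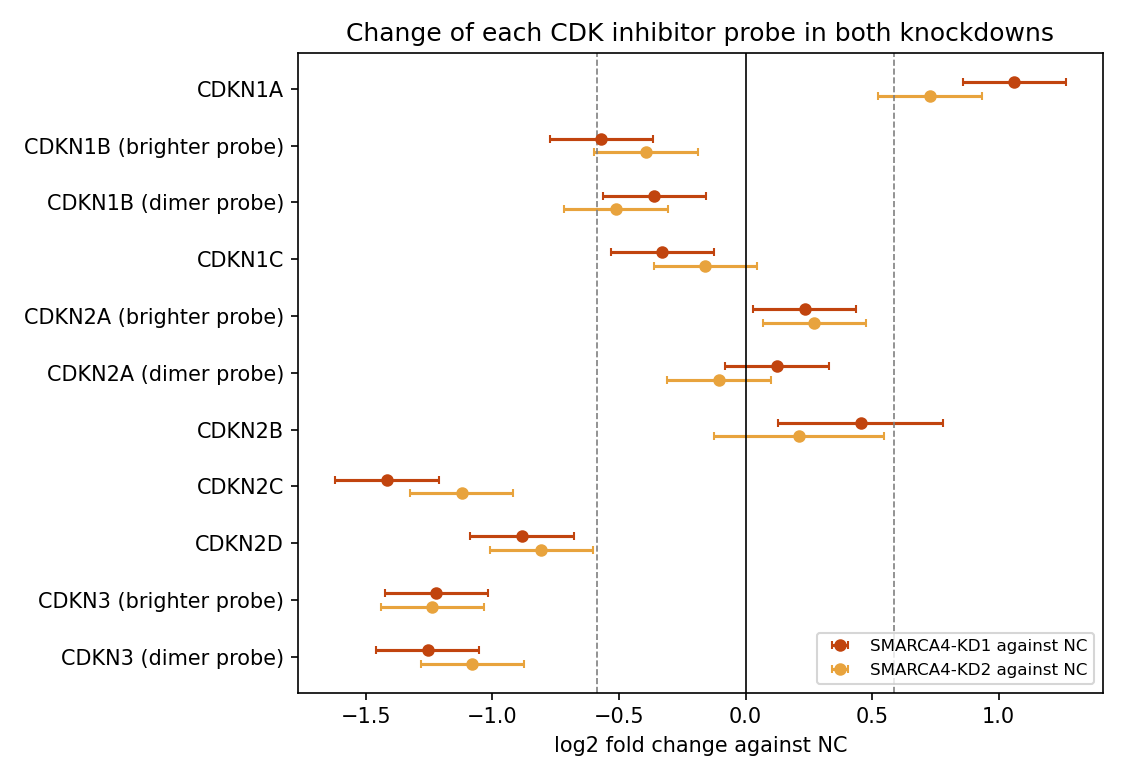
log2 fold change against NC of each CDK inhibitor probe in SMARCA4-KD1 and SMARCA4-KD2, 1 array each, with the extraction error as bars and dashed lines at 1.5-fold. CDKN1A lies past the upper line and CDKN2C, CDKN2D and both CDKN3 probes past the lower line in both knockdowns.

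The knockdowns were also set against each other. None of the 11 member probes and 6.33% of all probes were at least 1.5-fold apart between SMARCA4-KD1 and SMARCA4-KD2. With 11 probes, a count of none does not set the members apart from that share. The share also includes probes that were not detected on every array, whereas all member probes were. The difference between the knockdowns ranged in size from 0.02 for the brighter CDKN3 probe to 0.33 for CDKN1A on the log2 scale, and it was past the extraction error for the probes of CDKN1A and CDKN2C and the dimmer one of CDKN2A.

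Scaling set some of the directions. The E1A spike-in RNAs added to every sample were lower in the knockdowns than in NC, relative to the 75th percentile, and scaling to their 8 probes instead moved the median of all probes to 0.30 and 0.33 for SMARCA4-KD1 and SMARCA4-KD2. The split over all probes then went from 1924 higher and 2342 lower in both knockdowns to 5707 higher and 818 lower. Under this scaling CDKN1A stood at 1.37 and 1.05, CDKN2C at -1.11 and -0.81 and the brighter CDKN3 probe at -0.92 and -0.92 on the log2 scale, and CDKN2D at -0.58 and -0.49, no longer 1.5-fold lower. CDKN1C had -0.02 and 0.16 and the dimmer CDKN2A probe 0.43 and 0.21, so CDKN1C in SMARCA4-KD2 and the dimmer CDKN2A probe in SMARCA4-KD2 changed sign. The brighter CDKN1B probe had -0.27 and -0.08 and the dimmer -0.06 and -0.20. Of these, only the -0.27 of SMARCA4-KD1 was past the extraction error, so the lower CDKN1B values depended on the scaling.

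The kinases and cyclins that these inhibitors act on did not move as 1 group. Of 19 CDK, cyclin and RB genes, each read by its brightest probe, 18 were measured (CCND2 was not detected on any array), with 1 at least 1.5-fold higher and 4 lower in both knockdowns, beside 6.35% and 8.03% of 22619 genes. They had a median of -0.15 for SMARCA4-KD1 and -0.14 for SMARCA4-KD2 on the log2 scale, against 0.00 and 0.02 over all genes. CDK6, a target of the INK4 proteins, was the higher one: it read 14824 intensity units for SMARCA4-KD1, 11455 for SMARCA4-KD2 and 6621 for NC, a log2 fold change of 1.08 and 0.76. CDK4, the other INK4 target, had 0.20 and 0.32, and CDK2, the main target of p21 and p27, had 0.26 and 0.23, all short of 1.5-fold. CCND1 encodes cyclin D1, the partner of CDK4 and CDK6, and was lower at 3206, 2549 and 4960 intensity units, a log2 fold change of -0.72 and -0.99. CCNE1, a cyclin of CDK2, was 1.5-fold higher in SMARCA4-KD1 alone, at 0.61 and 0.48.

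The other genes of this list that were lower in both knockdowns act later in the cycle or at entry into S phase. CDK1, the mitotic kinase, had log2 fold changes of -0.81 and -0.79, its partner CCNB1 had -0.82 and -0.69, and CCNE2 had -0.68 and -0.77. The second CCNB1 probe gave -0.27 and -0.33 and the second CCNE2 probe -0.42 and -0.57, short of 1.5-fold, whereas the second CDK1 probe was also lower, at -1.49 and -1.71, the latter a limit because that probe was detected on 2 of the arrays and not in SMARCA4-KD2. With spike-in scaling none of the 4 lower genes was 1.5-fold lower in both knockdowns by its brightest probe, though all these probes kept a negative sign. CDK6, CCNE1 and E2F4 were then 1.5-fold higher in both. Under that scaling 5707 of 29333 probes were higher in both and 818 lower, so these calls are not read as particular to the list.

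The 28 genes listed as regulators of the transcription or turnover of the inhibitors were all measured. Of these, 1 was at least 1.5-fold higher and 1 lower in both knockdowns, beside 6.35% and 8.03% of 22619 genes. Their medians were -0.06 and -0.09, against -0.004 and 0.020 over all genes. MDM2, a ubiquitin ligase, was higher by its brightest probe, at 1399, 1231 and 738 intensity units in SMARCA4-KD1, SMARCA4-KD2 and NC and log2 fold changes of 0.84 and 0.71, but its other probes gave 0.25 and 0.17, and 0.24 and 0.05. SMARCA2, the alternative ATPase of the SWI/SNF complex, was the lower one, at 44.1, 59.1 and 114 intensity units, a log2 fold change of -1.45 and -0.97, and its other probe gave -2.01 and -1.67. With the normexp background correction the brighter probe had -0.78 and -0.57, so it was no longer 1.5-fold lower in both. SKP2, which targets p27 for turnover, lay near NC at -0.10 and -0.15, or 0.21 and 0.17 with spike-in scaling.

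Cell type markers were read to check the label. All 6 epithelial markers (EPCAM, CDH1, KRT8, KRT18, KRT19 and CLDN7) were detected on all arrays, at 3125 to 217698 intensity units. CLDN7 was past 1.5-fold higher in both knockdowns, with log2 fold changes of 0.79 and 0.72. The other epithelial markers, by their brightest probes, lay short of 1.5-fold. Of 6 markers of other cells, CD3E, PECAM1 and COL1A2 were not detected on any array. PTPRC (46.3 intensity units in NC, with 2 of 5 probes detected), COL1A1 (348) and VIM (826) were, and VIM had log2 fold changes of -1.47 and -1.57. Whether a shift among cell states has a part in the member values was not tested, and a bulk array cannot tell fewer cells with a transcript from less transcript per cell.

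The genes with values nearest to a member over both log2 fold changes were listed for the 4 genes that passed 1.5-fold in both, among 25281 probes detected on all 3 arrays. For CDKN1A these were PCED1A (1.08 and 0.74), NAT8L (1.05 and 0.71) and a transcript listed without a symbol. For CDKN2C they were POLE4 (-1.42 and -1.13), NT5M (-1.43 and -1.11) and CKAP2L (-1.39 and -1.12). For CDKN2D they were TTK (-0.88 and -0.82), SEC23A (-0.88 and -0.82) and ACOX3 (-0.89 and -0.80), and for CDKN3 they were IVD (-1.22 and -1.26) and 2 transcripts without a symbol. With 2 values per probe and this many probes, some lie close to any member.

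The promoters of 3 members are shown because these genes differed from NC by 1.5-fold or more in both knockdowns and a single start is listed for each. Sequence was found for 7 of the 8 members (10 starts in all, with 3 for CDKN2C and 2 for CDKN2A), in the RefSeq table for GRCh38.p14, a build other than that of the probe positions. Each line gives the 250 bases before the start on the strand of the gene. Capitals mark the GC box, spelled GGGCGG, the CCAAT box, and the cell cycle homology region (CHR), searched as TTTGAA and TTCGAA only. Each was searched on both strands, and GC boxes that overlap run together.
CDKN1A, chr6:36678464-36678713, plus strand: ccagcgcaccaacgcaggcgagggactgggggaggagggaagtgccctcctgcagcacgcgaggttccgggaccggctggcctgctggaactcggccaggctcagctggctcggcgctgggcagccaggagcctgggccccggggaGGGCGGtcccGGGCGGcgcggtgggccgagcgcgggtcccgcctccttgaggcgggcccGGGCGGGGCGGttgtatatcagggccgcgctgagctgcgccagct
CDKN2D, chr19:10568980-10569229, minus strand: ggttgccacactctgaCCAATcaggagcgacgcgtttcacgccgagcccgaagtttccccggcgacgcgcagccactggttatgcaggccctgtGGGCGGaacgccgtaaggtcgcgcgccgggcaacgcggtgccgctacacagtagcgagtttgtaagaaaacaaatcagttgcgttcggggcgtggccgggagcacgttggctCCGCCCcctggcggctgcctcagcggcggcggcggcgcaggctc
CDKN3, chr14:54396757-54397006, plus strand: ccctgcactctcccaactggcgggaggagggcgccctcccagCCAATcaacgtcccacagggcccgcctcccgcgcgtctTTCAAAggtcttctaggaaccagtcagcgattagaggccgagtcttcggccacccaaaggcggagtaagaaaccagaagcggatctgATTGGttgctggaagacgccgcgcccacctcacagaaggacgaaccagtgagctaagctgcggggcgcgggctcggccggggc

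The CDKN1A window held 4 GC boxes and no CCAAT box or CHR letters. The CDKN2D window held 1 CCAAT box and 2 GC boxes. The CDKN3 window held 2 CCAAT boxes and 1 CHR match on the reverse strand, 170 bases before the start. Among the windows not printed, 1 of CDKN2C, a gene that was lower, held 5 GC boxes and no CCAAT box or CHR letters. Windows of CDKN1B, CDKN2A and CDKN2B also held GC boxes, so these were not particular to the gene that was higher. In windows of the same length before all 35116 listed starts, 42.6% held a GC box, 32.0% a CCAAT box and 14.3% the CHR letters. None of the 10 member windows held on either strand the letters of an E2F site (searched as TTTCCCGC, as TTTCGCGC, as TTTGCCGC and as TTTGGCGC), which 2.79% of all windows held. These matches describe letters in the windows, and binding at them was not measured on the arrays.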

How the data were processed

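Total RNA of HCT116 cells was hybridised to Agilent SurePrint G3 Human Gene Expression v3 microarrays in a single colour, with 1 array each for SMARCA4-KD1, SMARCA4-KD2 and NC. The authors extracted spot intensity with Agilent Feature Extraction 10.7.1.1, and the deposited scanner files hold a background-subtracted processed intensity per spot, not normalized between arrays. Other deposited columns hold the software's error, well-above-background and outlier flags and similar values, used as given. The authors' deposited series-level table holds intensity too, equal to the scanner values of all 11 member probes within 0.1%.

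Outlier spots were left out, log2 signals of repeated spots were averaged, and the array's 75th percentile over non-control probes (237, 228 and 223 intensity units for SMARCA4-KD1, SMARCA4-KD2 and NC) was subtracted. Of the non-control probes, 45.7% to 47.3% were well above background per array. The 29333 probes with this mark on at least 1 array entered the comparisons, and values without it were raised to the lowest value that had it on the same array. Probes of 1 gene were kept apart for members, and the brightest was used for other genes. The error of a log2 fold change was taken from the extraction software's errors of both signals. Calls at 1.5-fold, the threshold of the study's methods, carry no test. Both knockdowns were set against NC in limma 3.58.1 under R 4.3.3, using a trend over intensity, with p-values adjusted by Benjamini-Hochberg over all probes. The steps were tested on simulated data. Python 3.11.15, numpy 2.4.6, pandas 2.3.3 and matplotlib 3.10.9 were used.

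The members and gene lists were chosen with earlier results of these data known. Named were all members, SMARCA4 and PRMT1, list genes at least 1.5-fold from NC in the same direction in both knockdowns, CDK2, CDK4, CDK6, CCND1, CCNE1 and SKP2 in any case, and the 3 genes nearest to each member that passed 1.5-fold in both. CDKN2B-AS1, E2F4, CCND2 and second probes were added after their values were seen. For 1 gene of the regulator list, values are not reported here. Alternatives were other scalings, background correction, filters, thresholds and tests.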

Additional observations from a re-analysis of the deposited data

How the results depend on the processing

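Each condition had 1 array, so no array could be left out and still leave a fit with residual degrees of freedom. No paired analysis was possible because each condition had 1 array, which leaves 1 shared number and no pairs to compare. CDKN1A stayed higher and CDKN2C, CDKN2D and CDKN3 stayed lower than NC under every scaling, background correction and filter run, with CDKN1A between 0.68 and 1.37, CDKN2C between -1.47 and -0.81 and CDKN3 between -1.32 and -0.76 on the log2 scale. CDKN2D ranged from -1.01 to -0.49, and 4 member probes were lower in both knockdowns in all settings but spike-in scaling and the 2-fold threshold, where 3 were. With the percentile of detected probes and with quantile normalization the brighter CDKN1B probe also passed in SMARCA4-KD1, making 5 lower there. With spike-in scaling, 2 member probes were higher in SMARCA4-KD1 (CDKN1A and CDKN2B) and 2 in SMARCA4-KD2 (CDKN1A and the brighter CDKN2A probe). Of 29333 probes, 5707 were then higher in both knockdowns and 818 lower. Lower in both were 1020 with normexp, 2721 with the percentile of detected probes and 2503 with quantile normalization, beside 2342 as reported. Shares over all probes at 2-fold, and over all genes under the alternatives, are not given here. At a threshold of 2-fold, 0 member probes were higher in SMARCA4-KD2 or in both knockdowns, and 0 genes of either list were higher or lower in both.

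For the CDK, cyclin and RB genes, spike-in scaling gave 3 higher and 0 lower in both and a median of 0.20, and the mean over a gene's probes gave 2 lower. For the regulators, spike-in scaling gave 4 higher and a median of 0.23, normexp gave 3 higher and 0 lower (SMARCA2 lost its call), and the mean over a gene's probes gave 0 higher. In limma, where 0 member probes passed an adjusted p of 0.05, 4 passed with the percentile taken from detected probes alone, 5 with quantile normalization, with normexp and with the series-level table, 6 with spike-in scaling and with the filter on all arrays, and 9 with no filter, where 28540 of 58171 probes sat at the floor on every array. Over all probes these settings called 1717, 2904, 4191, 4544, 7794, 6665 and 41721 probes, in the same order. At an unadjusted p of 0.05, 8 member probes and 9062 probes in all passed. The methods' t-test with 1.5-fold at its p of 0.01 called 1 member probe, of CDKN3, and 570 probes in all, and 0 after Benjamini-Hochberg adjustment. limma without a trend called 0 probes. The series-level table gave another count in limma, although it differed from the scanner values by more than 0.1% in 1 of 57901 single-spot probes. The counts of this fit were thus not stable. The cause of these differences was not tested.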
